A study of Mus musculus with 6 samples.

Results

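The genes described here encode the nuclear subunits of the mitochondrial oxidative phosphorylation system, followed in mouse tumours with and without a depot therapy. They were taken by name: symbols of the Nduf a, b, c, s and v series, Sdha to Sdhd, the Uqcr genes with Cyc1, the Cox4 to Cox8 genes and the Atp5 genes. Of 92 rows whose symbol fitted, 9 carried the ending "-ps" of pseudogenes and were left out, and none of the rest fell under a summed count of 15 over the 6 libraries. This gave 83 members of 28368 genes in the table, with 36 in complex I, 4 in complex II, 9 in complex III, 17 in complex IV and 17 in complex V. The rule itself uses names and a summed count over both groups, and no difference between them.

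Oxidative phosphorylation takes electrons from NADH at complex I and from succinate at complex II, passes them through ubiquinone, complex III and cytochrome c, and hands them to oxygen at complex IV. Complexes I, III and IV pump protons across the inner mitochondrial membrane, and complex V, the ATP synthase, lets them flow back to make ATP. Complex II is built from nuclear genes alone, whereas the other complexes combine nuclear subunits with a few proteins made from mitochondrial DNA. Human pigment cell tumours are known to vary in how much they rely on this system, in part through the coactivator PGC-1alpha.

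The treated group held 3 tumour libraries from mice under MS-DF-MS therapy for 12 h. The control group held 3 tumour libraries from untreated mice. The series title describes implanted depots that first release a STING agonist and then an apoptosis inducer, and its stated question concerns activation of the STING and interferon-beta pathway inside the tumour. The sources used here give no mouse strain, age, tumour type or drug name, and no group had an empty depot. Whether each library came from a separate animal is not stated, so all p-values reflect the variation among these samples only, some of which may be technical.

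Libraries held 64505780 to 66634551 counts in the treated group and 57017043 to 64172654 in the control group. Pigment cell markers were abundant in both, with summed levels of 21636 to 23503 CPM (counts scaled to library size) in treated and 21010 to 23200 CPM in controls, and none of the 7 passed the test. Treated 1 stood apart by skin transcripts: the 6 keratinocyte markers summed to 85.2 CPM there, against 0 and 0.0903 CPM in treated 2 and 3 and 0.0526 to 0.14 CPM in the controls. Its red blood cell markers, at 1472 CPM, were also above those of treated 2 and 3 (486 and 262 CPM) and of the controls (98.0 to 249.6 CPM). The median of each complex is therefore also given without treated 1. These are bulk samples, in which fewer cells of a type and less RNA per cell cannot be told apart.

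To show what the start regions of these genes look like, 1 member of each complex is printed below, chosen among members with a RefSeq window and a match to the NRF1 motif. NRF1 and the ETS family factor GABP, also called NRF2, are known regulators of respiratory chain genes. Each sequence runs 5′ to 3′ on the gene's strand from 250 bases before to 50 after the RefSeq start (GRCm38.p6). The NRF1 motif is GCGCA, any base N, then GCGC, or GCGC, N, then TGCGC on the other strand. The ETS motif is CCGGAAG, or CTTCCGG on the other strand. Matches to these motifs are in capitals. The windows are chr4:123718137-123718436 on the minus strand for Ndufs5, chr9:50603800-50604099 on the minus strand for Sdhd and chr9:108936398-108936697 on the plus strand for Uqcrc1. Those of Cox6a1 and Atp5k, both on the minus strand, are chr5:115348909-115349208 and chr5:108434350-108434649.
Ndufs5: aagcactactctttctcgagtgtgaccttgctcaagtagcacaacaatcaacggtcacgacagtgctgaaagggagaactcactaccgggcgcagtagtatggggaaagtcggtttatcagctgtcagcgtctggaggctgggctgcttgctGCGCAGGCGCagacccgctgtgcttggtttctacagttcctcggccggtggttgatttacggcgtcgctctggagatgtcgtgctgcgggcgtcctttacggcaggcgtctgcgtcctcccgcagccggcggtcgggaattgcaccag
Sdhd: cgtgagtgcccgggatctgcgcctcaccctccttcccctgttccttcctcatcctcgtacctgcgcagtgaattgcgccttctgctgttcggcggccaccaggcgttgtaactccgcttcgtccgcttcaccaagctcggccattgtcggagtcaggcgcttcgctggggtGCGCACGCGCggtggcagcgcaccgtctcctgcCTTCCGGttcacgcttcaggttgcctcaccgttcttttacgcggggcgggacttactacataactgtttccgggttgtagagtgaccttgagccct
Uqcrc1: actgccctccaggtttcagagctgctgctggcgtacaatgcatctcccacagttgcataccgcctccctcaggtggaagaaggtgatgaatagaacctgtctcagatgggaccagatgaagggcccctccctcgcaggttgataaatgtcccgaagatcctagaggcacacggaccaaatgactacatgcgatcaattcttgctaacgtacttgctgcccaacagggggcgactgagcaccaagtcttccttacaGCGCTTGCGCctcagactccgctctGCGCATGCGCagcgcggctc
Cox6a1: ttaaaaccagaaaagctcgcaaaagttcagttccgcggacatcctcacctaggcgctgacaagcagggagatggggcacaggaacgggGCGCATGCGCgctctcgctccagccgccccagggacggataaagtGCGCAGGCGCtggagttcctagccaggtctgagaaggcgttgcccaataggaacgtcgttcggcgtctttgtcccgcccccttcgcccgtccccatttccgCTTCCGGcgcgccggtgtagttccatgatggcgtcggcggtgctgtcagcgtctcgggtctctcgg
Atp5k: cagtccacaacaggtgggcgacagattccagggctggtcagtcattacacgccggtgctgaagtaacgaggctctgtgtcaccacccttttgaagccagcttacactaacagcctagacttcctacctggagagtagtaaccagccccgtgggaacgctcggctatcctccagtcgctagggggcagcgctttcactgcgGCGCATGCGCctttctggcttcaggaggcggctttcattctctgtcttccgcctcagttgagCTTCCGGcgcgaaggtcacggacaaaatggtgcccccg
Among the sequences shown, Cox6a1 and Uqcrc1 held 2 NRF1 matches each and the others 1, and Sdhd, Cox6a1 and Atp5k also held an ETS match.

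Windows were found for 67 of the 83 members, 72 windows in all because some genes have more than 1 start. The NRF1 motif, searched on both strands, occurred in 18 of these windows (25.0%), against 6.38% of 21263 windows of protein-coding genes. The ETS motif occurred in 17 (23.6%), against 11.6% of all windows. At least 1 of the NRF1 and ETS motifs was present in 31 windows (43.1%), against 16.7%. These are matches of letters and not measured binding sites. The windows compared were those of all protein-coding genes, expressed here or not, and were not matched to the members in base content. The members lie on 19 chromosomes. A protein-coding gene started within 1000 bases in the opposite direction at 19 of 82 protein-coding members (23.2%), against 9.63% of the protein-coding genes tested.

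Per unit of length, subunits of the ATP synthase led the members. FPKM, the length-scaled fragment level deposited by the authors, is used here for levels between genes. The catalytic beta subunit Atp5b had 370 FPKM as a mean of all libraries and the alpha subunit Atp5a1 319. They were followed by Cox8a of complex IV (261), Uqcr10 of complex III (232) and Ndufa4, named for complex I but known as a subunit of complex IV (228). Median levels were 42.2 FPKM in treated and 41.6 in control tumours for complex I, 87.1 and 91.1 for complex II, and 88.6 and 86.4 for complex III. For complex IV they were 86.7 FPKM in treated and 79.4 in control tumours, and for complex V 90.4 and 89.1. Complex I thus had the lowest median level in both groups, and its lowest member was Ndufb2 at 6.5 FPKM. Subunits of 1 complex are present in fixed ratios as proteins, yet the mean FPKM of complex III members alone ran from 59.0 (Uqcr11) to 232. The exon length that FPKM divides by depends on how many long isoforms an annotation lists, and it differs between members from 231 to 8086 bases in GENCODE M21.

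**Figure D1:**
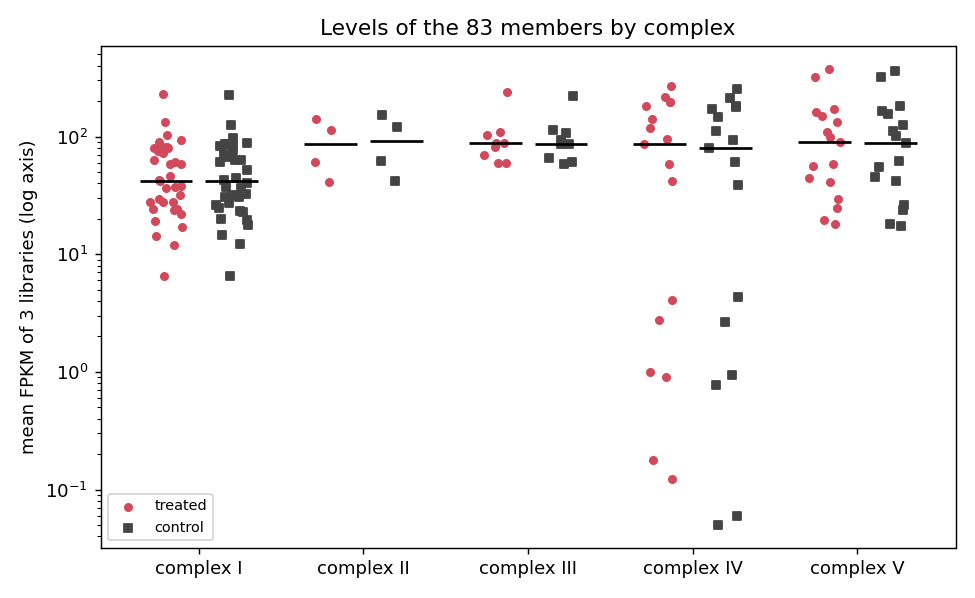
Mean FPKM over 3 libraries (log axis) of each of the 83 members by complex, treated in red circles on the left and control in dark squares on the right of each complex, with black lines for medians. The medians of both groups lie close together in every complex, at 42.2 FPKM in treated and 41.6 in control tumours for complex I, and the points under 5 FPKM all belong to complex IV.

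None of the members passed the test between treated and control tumours. Of 82 members tested with edgeR's quasi-likelihood test, 0 were called higher and 0 lower (adjusted p under 0.05 after Benjamini-Hochberg), where 1.36% of the 18049 genes tested rose, 0.249% fell and 1.61% were called in either direction. An unadjusted p under 0.05 was reached by 2 members (2.44%), Ndufs5 and Ndufa13, both higher in treated tumours, against 16% of all genes (9.12% higher and 6.9% lower), and DESeq2, limma-voom and limma-voom with quality weights also called 0 members. Groups did not overlap for 6 members (7.32%), against 23.3% of all genes (12% higher and 11.2% lower in treated tumours). All 6 were higher in treated tumours, among them Ndufs5, Ndufa13 and Uqcrq. The median log2 fold change of the members was 0.03, that of all tested genes -0.003, and 48 members had a positive and 34 a negative value.

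The differences were also small in size. The log2 fold change lay within 0.25 of 0 for 80 of 82 members (97.6%), against 62.5% of all genes tested. Its 95% interval stayed within 1.5-fold in both directions for 75 of 82 members, against 9127 of 18049 genes, and within 2-fold for 80. Of the 7 members with wider intervals, Ndufa12 and Atp5k varied between libraries of the same group, and 5 were complex IV rows under 2 CPM. The members are abundant genes with a median SE of 0.0746 on the log2 scale, against 0.155 for all genes, and so have narrower intervals than most. Changes of single subunits within these intervals were not detectable with these libraries.

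**Figure D2:**
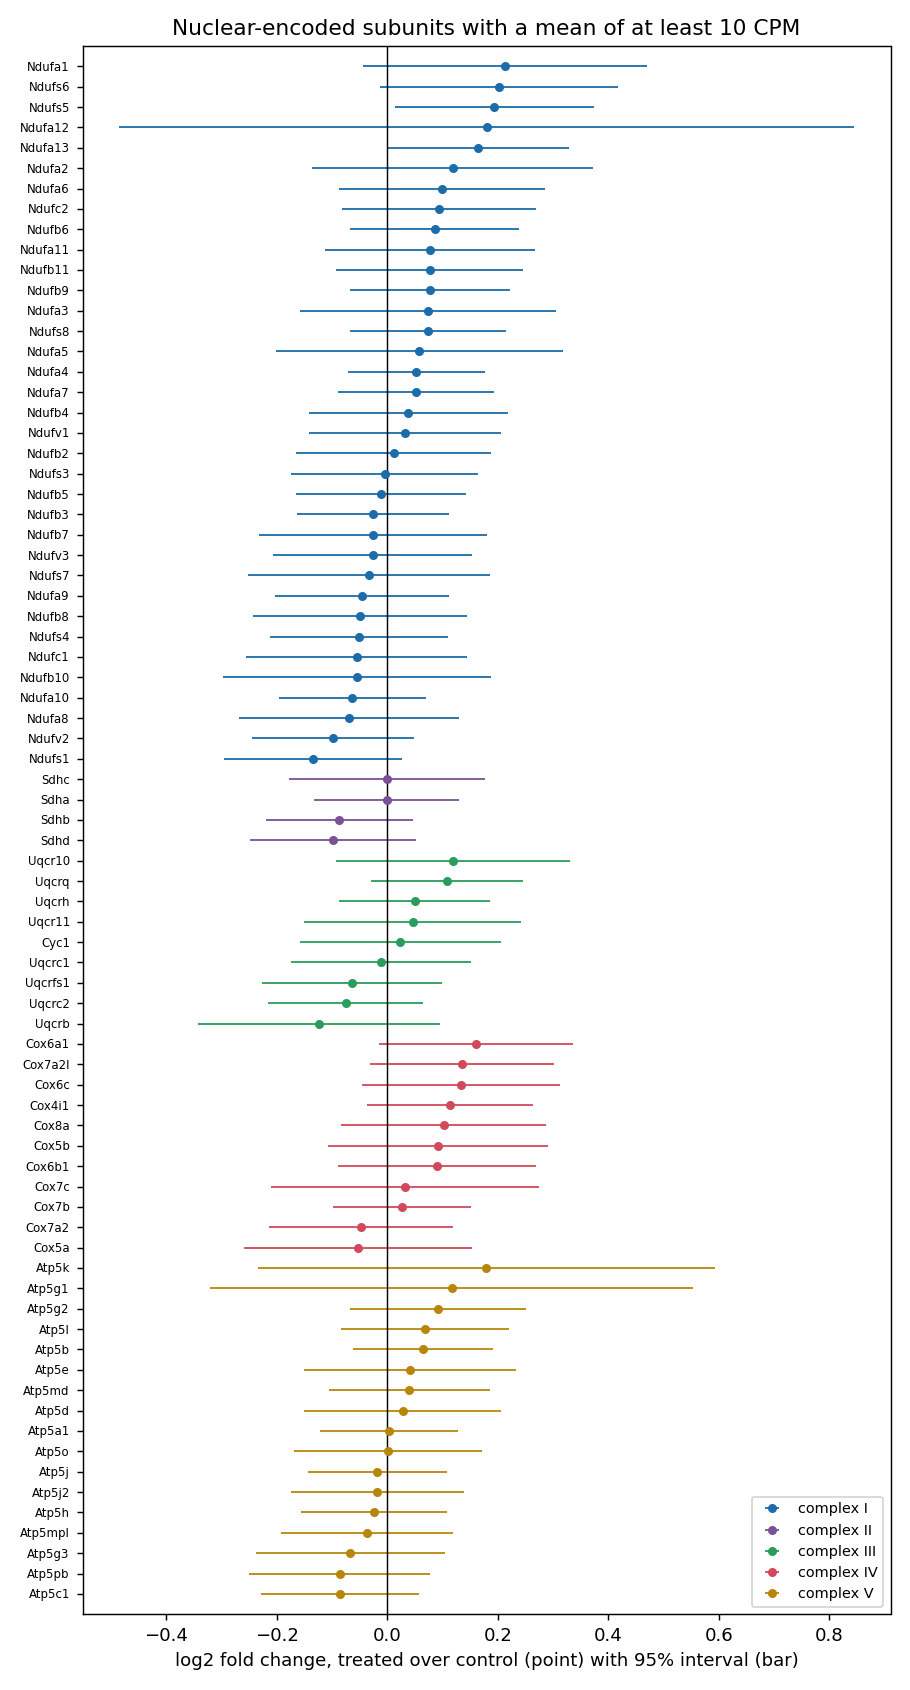
Log2 fold change, treated over control (points), with 95% intervals from edgeR (bars) for members with a mean of at least 10 CPM, grouped and coloured by complex. Points lie between -0.13 (Ndufs1) and 0.21 (Ndufa1), and the intervals of Ndufa12, Atp5k and Atp5g1 are the widest.

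Complex I, the NADH dehydrogenase, had a median log2 fold change of 0.05 over 36 members, with a range from -0.13 to 0.21. Without treated 1 the median was 0.002. Its summed level was 3456 ± 161 CPM in treated tumours and 3419 ± 43.7 CPM in controls (SD, n = 3 each). The 7 members of the conserved core, which carry the flavin and iron-sulfur clusters, had a median of -0.005, and the 29 accessory subunits had a median of 0.05. Ndufs1, the largest core subunit, had 244, 268 and 247 CPM in treated 1, 2 and 3, against 261, 275 and 296 CPM in control 1, 2 and 3. Treated 2 lay above control 1, so the groups overlapped (log2 fold change -0.13 ± 0.07 SE, edgeR adjusted p = 0.397). Ndufv1, the NADH-binding flavoprotein, had 117.5, 111.5 and 105.4 CPM in treated tumours and 111.8, 115.0 and 100.4 CPM in controls, with overlapping groups and a log2 fold change of 0.03 ± 0.08 (-0.006 without treated 1).

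Among the accessory subunits, Ndufs5 had the smallest p of all members. Its level was 58.8, 55.0 and 58.1 CPM in treated 1, 2 and 3, against 51.6, 53.2 and 45.4 CPM in control 1, 2 and 3. The groups did not overlap, and the log2 fold change was 0.19 ± 0.08 (edgeR adjusted p = 0.28). Ndufa13, also called Grim19 and known in human cells from cell death induced by interferon and retinoic acid, followed with 60.2, 59.7 and 57.7 CPM in treated tumours and 55.7, 54.0 and 48.8 CPM in controls. Its groups did not overlap either (log2 fold change 0.16 ± 0.07, edgeR adjusted p = 0.31; named after its values were seen). Ndufa1, a small membrane subunit from the X chromosome, had the largest positive value of complex I, at 39.9, 39.7 and 36.0 CPM in treated tumours and 35.6, 36.2 and 27.9 CPM in controls. Treated 3 lay between controls 1 and 2, and the log2 fold change was 0.21 ± 0.11 (edgeR adjusted p = 0.402). Ndufa4 had 372, 364 and 350 CPM in treated tumours and 354, 352 and 341 CPM in controls, overlapping at treated 3 (log2 fold change 0.05 ± 0.05). The other accessory subunits ran from -0.07 (Ndufa8) to 0.20 (Ndufs6), none with an adjusted p under 0.05.

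All 4 genes of complex II, the succinate dehydrogenase shared with the TCA cycle, had negative values, of which those of Sdha and Sdhc were near 0 and changed sign with the filter on low counts or without treated 1, and none passed the test. The median was -0.04, also without treated 1, and the summed level was 922 ± 22.8 CPM in treated tumours and 954 ± 8.59 CPM in controls. Sdha, the flavoprotein that oxidises succinate, had 277, 296 and 287 CPM in treated 1, 2 and 3, against 279, 297 and 285 CPM in control 1, 2 and 3. The spread within each group was larger than the difference, with a log2 fold change of -0.0009 ± 0.06. Sdhb, the iron-sulfur subunit, had 302, 283 and 274 CPM in treated tumours and 302, 306 and 305 CPM in controls (log2 fold change -0.09 ± 0.06, edgeR adjusted p = 0.522). Treated 1 lay within the range of the controls, and the other treated libraries lay below it. Sdhd, a membrane anchor, had 197.5, 207.7 and 183.1 CPM in treated tumours and 204.8, 209.4 and 215.4 CPM in controls, overlapping at treated 2 (-0.10 ± 0.07, edgeR adjusted p = 0.521). Sdhc, the other anchor, had a log2 fold change of -0.0003 ± 0.08.

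Complex III, the cytochrome bc1 complex, had a median log2 fold change of 0.02 over 9 members and a summed level of 1493 ± 83.6 CPM in treated tumours and 1490 ± 24.6 CPM in controls. Without treated 1 its median was -0.04. Of the redox subunits, cytochrome c1 (Cyc1) had 287.5, 265.9 and 241.3 CPM in treated tumours and 245.1, 266.9 and 269.7 CPM in controls, and the Rieske iron-sulfur protein (Uqcrfs1) had 138.5, 142.0 and 130.2 CPM in treated tumours and 132.8, 145.9 and 150.4 CPM in controls. Both overlapped, with log2 fold changes of 0.02 ± 0.08 for Cyc1 (-0.04 without treated 1) and -0.06 ± 0.07 for Uqcrfs1. The core protein Uqcrc1 had 298, 286 and 256 CPM in treated tumours and 273, 290.1 and 283 CPM in controls (-0.01 ± 0.07). Treated 1 was the highest and treated 3 the lowest of its 6 libraries. Among the small subunits, Uqcrq, which sits beside cytochrome b, had 146.8, 148.0 and 142.0 CPM in treated tumours and 141.4, 131.9 and 131.9 CPM in controls. The groups did not overlap, at 0.11 ± 0.06 on the log2 scale (edgeR adjusted p = 0.426). Uqcr10 had the largest positive value (0.12 ± 0.09, and 0.06 without treated 1) and Uqcrb, a quinone-binding protein, the largest negative one (-0.12 ± 0.09). Uqcrb stood at 105.3, 114.4 and 88.3 CPM in treated tumours and 112.0, 113.5 and 109.9 CPM in controls. Treated 1 and 3 lay below every control and treated 2 above every control.

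Complex IV, cytochrome c oxidase, had the highest median of the complexes, 0.09 over 16 tested members, of which 12 were positive and 4 negative. Without treated 1 the median was 0.06. Its summed level was 2080 ± 127 CPM in treated tumours and 1976 ± 53.3 CPM in controls. No member passed the test and no member separated the groups. Counting Ndufa4 with complex IV left the median at 0.09, and complex I then had 0.04. Cox6a1, the widely expressed form of its subunit, had the smallest p, with 163.5, 166.9 and 143.4 CPM in treated 1, 2 and 3, against 147.6, 140.6 and 135.3 CPM in control 1, 2 and 3. Treated 3 lay below control 1, and the log2 fold change was 0.16 ± 0.08 (edgeR adjusted p = 0.349). Cox4i1, the largest nuclear subunit, had 349.2, 349.1 and 331.7 CPM in treated tumours and 336.5, 320.2 and 295.5 CPM in controls (0.11 ± 0.06, edgeR adjusted p = 0.447). Cox8a had 198.4, 200.7 and 167.5 CPM in treated tumours and 177.0, 180.1 and 170.6 CPM in controls (0.10 ± 0.08, and 0.07 without treated 1). In both genes treated 1 and 2 lay above every control and treated 3 did not.

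Further widely expressed subunits of complex IV were Cox6b1 (log2 fold change 0.09 ± 0.08), Cox7b (0.03 ± 0.05), Cox5a (-0.05 ± 0.09) and Cox7a2 (-0.05 ± 0.07). Cox5a was highest in treated 1, at 154.9 CPM, and lowest in treated 3, at 126.7 CPM, with the controls at 134.1 to 152.9 CPM, and without treated 1 its log2 fold change was -0.13. Cox7a2l, a relative of Cox7a2 that joins complexes III and IV into supercomplexes, went the other way within the treated group. It had 137.3, 148.1 and 150.4 CPM in treated 1, 2 and 3, against 140.9, 132.8 and 123.2 CPM in control 1, 2 and 3 (0.13 ± 0.07, edgeR adjusted p = 0.414). Cox6c2 is annotated as a processed pseudogene in GENCODE M21 and had 417 counts in all. It may share reads with Cox6c, as the rows Cox5b-ps (7905 counts) and Atp5pb-ps (1414 counts) that the rule left out may with their parent genes.

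The isoforms of complex IV known from lung, muscle, heart and testis were low in every library. Of the FPKM of each isoform family, Cox4i2, the lung form, made up 0.438 to 0.503% in treated and 0.282 to 0.619% in control tumours. The heart and muscle form Cox6a2 made up 0.391 to 0.612% in treated and 0.138 to 0.635% in control tumours, and the muscle form Cox7a1 1.63 to 2.38% in treated and 1.31 to 2.02% in controls. The ranges overlapped in each case. Their log2 fold changes were -0.05 ± 0.41 for Cox4i2, 0.36 ± 0.56 for Cox6a2 (0.16 without treated 1) and 0.06 ± 0.27 for Cox7a1 (0.135 without treated 1). The testis form Cox6b2 had 49 counts and the muscle form Cox8b 19 counts over all libraries. Cox8b failed the filter and was not tested, and the value of Cox6b2, 1.17 ± 1.12 (edgeR adjusted p = 0.679), rests on those few counts. The 15 markers of striated muscle summed to 188.4, 34.02 and 5.57 CPM in treated 1, 2 and 3, against 89.5, 71.3 and 35.9 CPM in control 1, 2 and 3. The restricted isoforms of complex IV summed to 3.67, 3.57 and 3.34 CPM in treated tumours and 3.61, 3.82 and 2.03 CPM in controls. The part of muscle tissue in the isoforms' levels was not tested.

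Complex V had a median log2 fold change of 0.003 over 17 members (-0.02 without treated 1) and the largest summed level, 5843 ± 263 CPM in treated tumours and 5786 ± 77.7 CPM in controls. Atp5b had 1734, 1915 and 1791 CPM in treated 1, 2 and 3, against 1678, 1726 and 1797 CPM in control 1, 2 and 3 (log2 fold change 0.06 ± 0.06). Atp5a1 had 1143, 1183 and 1069 CPM in treated tumours and 1108, 1144 and 1136 CPM in controls (0.003 ± 0.05). Both head subunits overlapped between groups, and their 95% intervals lay between 0.919 and 1.14-fold. Atp5c1, the central stalk that turns within the head, had the largest negative value, at 361, 391 and 350.4 CPM in treated tumours and 379, 389 and 403 CPM in controls (-0.09 ± 0.06, edgeR adjusted p = 0.557). The 4 peripheral stalk genes had a median of -0.02 and the 5 small membrane subunits one of 0.04.

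The c subunit, whose ring turns as protons pass, is made from 3 genes that encode the same mature protein behind different import signals. Atp5g3 gave 47.4 to 51.4% of their summed FPKM in treated and 50.2 to 54.9% in control tumours, and Atp5g2 gave 41.4 to 47.6% in treated and 39.7 to 44.4% in controls. Atp5g1 gave 5.09 to 7.2% in treated and 5.36 to 7.2% in control tumours. The order Atp5g3, Atp5g2, Atp5g1 held in 5 libraries, and in treated 3 Atp5g2 (47.6%) slightly exceeded Atp5g3 (47.4%). Log2 fold changes were -0.07 ± 0.07 for Atp5g3, 0.09 ± 0.07 for Atp5g2 and 0.12 ± 0.19 for Atp5g1, and without treated 1 they were -0.13, 0.12 and -0.001.

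Between single libraries the members were steady. Over the 77 members with a mean of at least 10 CPM, the highest of the 6 libraries exceeded the lowest by a median of 1.18-fold, and for 3 members by over 1.5-fold. Ndufa12, an accessory subunit of complex I, varied most (2.11-fold), with 33.7, 54.0 and 29.5 CPM in treated 1, 2 and 3, against 25.6, 48.5 and 29.3 CPM in control 1, 2 and 3. It was high in 1 library of each group (named after its values were seen). Atp5k, subunit e of complex V, came next (1.70-fold) with 25.7, 18.7 and 16.9 CPM in treated tumours and 19.3, 19.8 and 15.1 CPM in controls. Its largest value was that of treated 1, and without that library its log2 fold change was -0.02 in place of 0.18. Atp5g1 (1.56-fold) had 125.6, 119.1 and 80.5 CPM in treated tumours and 89.6, 122.9 and 87.4 CPM in controls, again with high and low libraries in both groups.

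**Figure D3:**
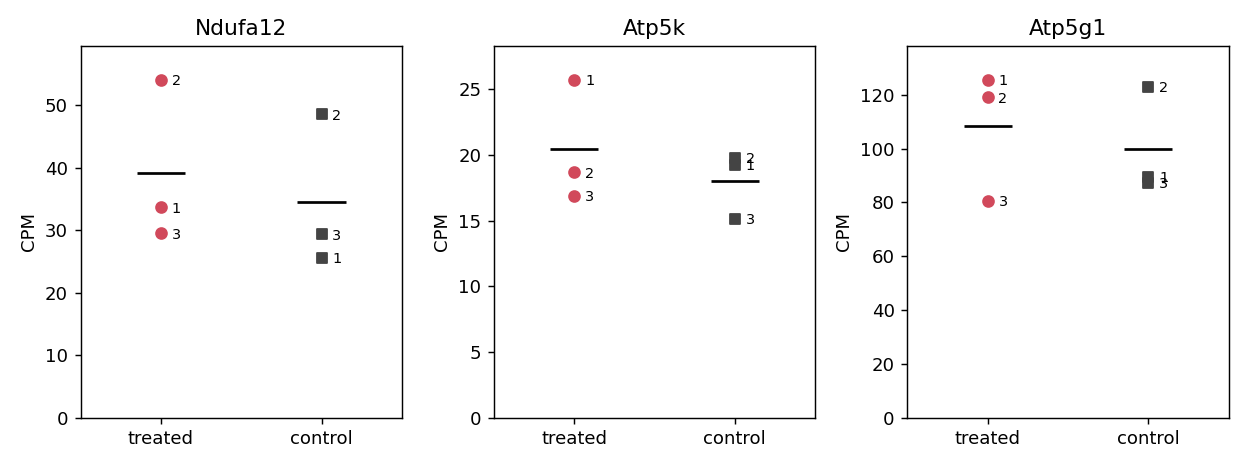
CPM of the 3 members whose highest library exceeded the lowest by over 1.5-fold, treated in red circles on the left and control in dark squares on the right, each point marked with its replicate number and black lines for means. Ndufa12 is high in treated 2 and control 2, Atp5k in treated 1, and Atp5g1 is low in treated 3 and controls 1 and 3.

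In the members, the treated libraries differed among themselves more than the controls did, and in the same order for most of them. A larger spread was also seen over all genes tested. There the chi-square per gene, a measure of count differences within a pair of libraries, was 46.9, 63.5 and 36.2 for treated pairs. For control pairs it was 18.1, 38 and 20.4. Treated 3 was the lowest of the 3 treated libraries for 66 of the 77 members, and treated 1 the highest for 48. Among controls, control 1, 2 and 3 were lowest for 30, 12 and 35 members. Relative to the control mean, the median log2 deviation of the members was 0.10, 0.05 and -0.07 in treated 1, 2 and 3, against 0.001, 0.01 and -0.02 in control 1, 2 and 3. Summed levels were 14104, 14213 and 13063 CPM in treated tumours and 13530, 13750 and 13594 CPM in controls, or 1.43, 1.38 and 1.30% of all counts in treated and 1.37, 1.38 and 1.36% in controls. Without treated 1 the median log2 fold change of the members was -0.005 and without treated 3 it was 0.07, and no member passed the test in either case. By complex, the medians without treated 3 were 0.07, -0.03, 0.08, 0.12 and 0.06 for complexes I, II, III, IV and V. Keratinocyte, red blood cell, muscle, macrophage and adipocyte markers were all highest in treated 1. The 8 macrophage markers summed to 238, 138 and 67.8 CPM in treated 1, 2 and 3, against 208, 199 and 152 CPM in control 1, 2 and 3. Red blood cell, muscle, adipocyte, T cell and fibroblast markers also fell from treated 1 over 2 to 3. Pigment cell markers rose in that order (21636, 22978 and 23503 CPM), and keratinocyte, endothelial and pericyte markers did neither. The part of these cell types in the members' values was not tested.

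**Figure D4:**
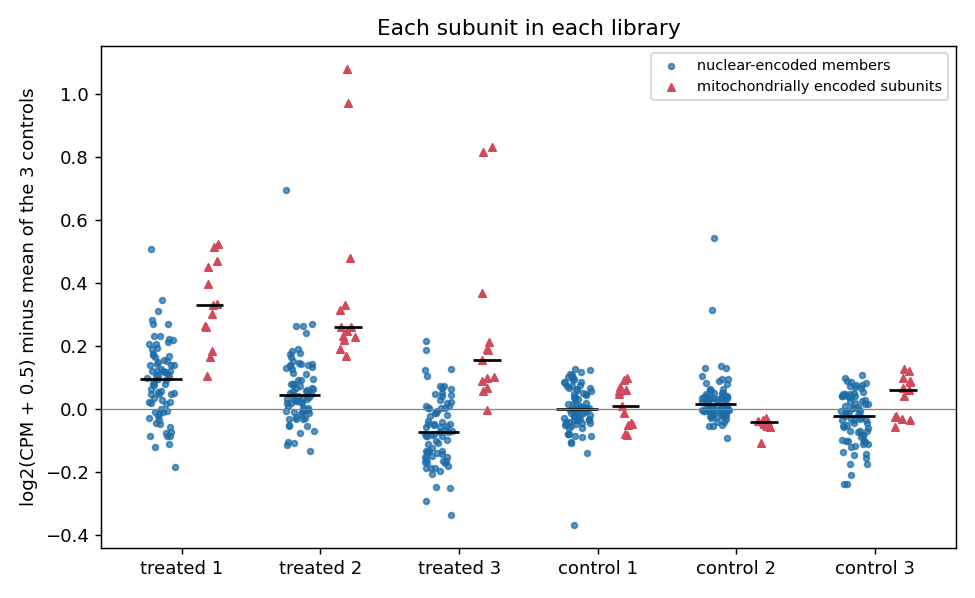
Log2(CPM + 0.5) minus the mean of the 3 controls for each nuclear-encoded member with at least 10 CPM (blue circles) and each mitochondrially encoded subunit (red triangles) in each library, with black lines for medians. Nuclear-encoded members centre on 0.10 in treated 1 and on -0.07 in treated 3, whereas the mitochondrial genes centre above 0 in all 3 treated libraries.

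The change of a member varied with its annotated exon length, counted over all exons listed for the gene. The length of the transcripts expressed in these tumours was not measured. The members are short, with a median exon length of 1569 bases in GENCODE M21 against 3618.5 for the tested genes, from a median of 944 bases in complex IV to 2744.5 in complex II. Across the 82 tested members, Spearman's rho between exon length and log2 fold change was -0.36, against 0.02 across 18030 genes. The shorter members had a median log2 fold change of 0.07 and the longer ones of -0.001, split at 1578 bases. The relation of level to length differed between single libraries, with rho of -0.36, -0.21 and 0.01 in treated 1, 2 and 3, against -0.10, 0.01 and 0.36 in control 1, 2 and 3. Treated 1 and control 3 thus lay at opposite ends, with short members relatively high in treated 1 and low in control 3. Genes are not independent replicates, and these values describe the libraries. Complex IV, with the shortest median exon length, was also the complex with the highest median change. The other complexes did not all follow that order. Complex III, next shortest at 1363 bases, had a lower median change (0.02) than complex I (1532 bases, 0.05).

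The 13 subunits encoded by mitochondrial DNA, the partners of the nuclear subunits in complexes I, III, IV and V, had higher values in treated tumours throughout. All 13 had positive log2 fold changes, with a median of 0.22 and a range from 0.15 (mt-Cytb) to 0.83, and the groups did not overlap for 9 of them (69.2%, against 23.3% of all genes tested). By edgeR's adjusted p, 3 rose and 0 fell, all 3 in complex I, where 1.36% of all genes rose. An unadjusted p under 0.05 was reached by 11 of the 13 (84.6%), against 16% of all genes. The mitochondrial gene mt-Nd5 had 1054, 1552 and 1305 CPM in treated 1, 2 and 3, against 726, 707 and 769 CPM in control 1, 2 and 3 (0.83 ± 0.13, edgeR adjusted p = 0.02). Likewise mt-Nd6, which lies on the other strand and overlaps the end of mt-Nd5, had 298, 410.2 and 368 CPM in treated tumours and 216, 194 and 218 CPM in controls (0.78 ± 0.11, edgeR adjusted p = 0.0185), and reads of the pair cannot be told apart if counting ignored strand. The third, mt-Nd1, had 1823, 1858 and 1721 CPM in treated tumours and 1341, 1290 and 1371 CPM in controls (0.43 ± 0.05, edgeR adjusted p = 0.00624). All 3 calls held without treated 1, and none held without control 2, where the adjusted p was 0.0805 for mt-Nd1, 0.135 for mt-Nd5 and 0.128 for mt-Nd6. Calls of mt-Nd5 and mt-Nd6 were also lost without control 1 (0.088 and 0.0764) and control 3 (0.1 and 0.0912), and that of mt-Nd6 without treated 2 (0.0611). Copies of mitochondrial DNA in the nuclear genome may share reads with these genes.

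Mitochondrial and nuclear transcripts of each complex were also set against each other. For complex I, the summed CPM of the mitochondrial genes was 2.06, 2.23 and 2.20 times that of the nuclear members in treated 1, 2 and 3, against 1.71, 1.58 and 1.67 times in control 1, 2 and 3. For complex V it was 0.904, 0.843 and 0.854 in treated 1, 2 and 3 (0.867 ± 0.0325). In control 1, 2 and 3 it was 0.751, 0.756 and 0.837 (0.781 ± 0.0483). Groups did not overlap in either complex, but in complex V treated 2 lay only just above control 3. They overlapped in complex III (3.17 ± 0.185 in treated, 2.86 ± 0.154 in controls) and complex IV (8.86 ± 0.275 in treated, 8.07 ± 0.783 in controls). Over all members the ratio was 2.63, 2.59 and 2.55 in treated and 2.19, 2.14 and 2.35 in control tumours. Endothelial markers were also higher in treated tumours: 4 of 7 rose (Pecam1, Cdh5, Robo4 and Emcn), where 1.36% of all genes tested did. The 7 endothelial markers summed to 375 to 398 CPM in treated tumours and 287 to 296 CPM in controls, with none at 0. Of 10 pericyte and smooth muscle markers, 1 (Kcnj8) rose, and they summed to 128 to 133 CPM in treated tumours and 94.5 to 114 CPM in controls. Of the 3 adipocyte markers tested 0 passed, and the 7 in the table summed to 82.7, 45.9 and 37.5 CPM in treated 1, 2 and 3, against 26.6, 26.4 and 28.1 CPM in control 1, 2 and 3. Most of this was Fabp4, also an endothelial gene, while Plin1 had 0 counts in every treated library. None of the 6 T cell markers passed, and they summed to 5.08, 3.23 and 1.46 CPM in treated tumours, against 6.16, 5.71 and 6.70 CPM in controls. The part of these cell types in the ratio was not tested.

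**Figure D5:**
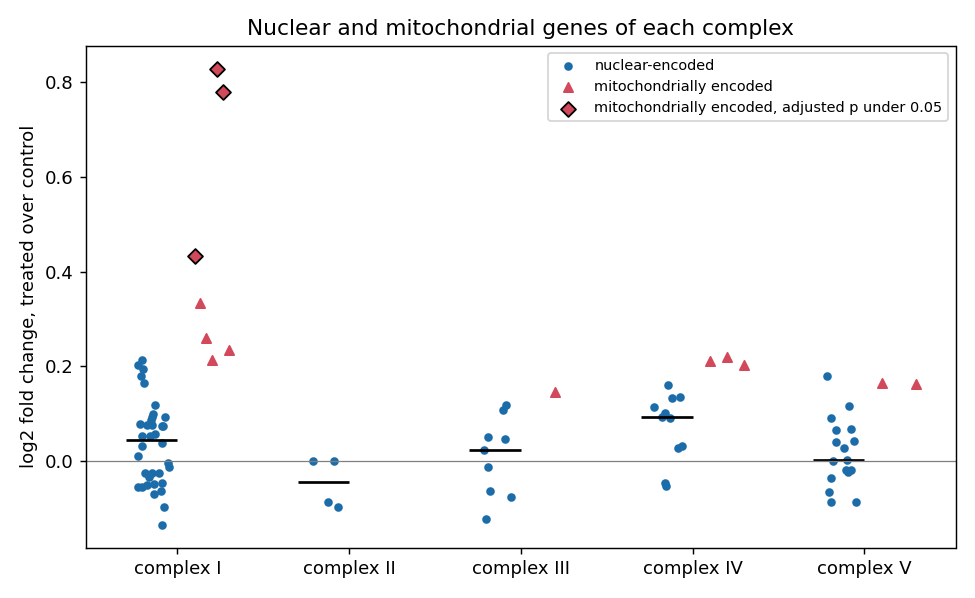
Log2 fold change, treated over control, of the 77 nuclear-encoded members with at least 10 CPM (blue circles, black lines for their medians) beside the 13 mitochondrially encoded subunits (red triangles, outlined diamonds where the edgeR adjusted p was under 0.05) by complex. All mitochondrial genes lie above 0, the outlined mt-Nd1, mt-Nd6 and mt-Nd5 from 0.43 to 0.83, while the nuclear medians lie between -0.04 and 0.09.

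Among genes that build the complexes or share their pathway, most lists gave no call. Of 50 tested assembly factors, 0 passed the test in either direction, with a median log2 fold change of 0.01. An unadjusted p under 0.05 was reached by 4 (8%, against 16% of all genes tested). By smallest p the assembly factors were led in complex IV by Cox15, needed for heme a (0.25 ± 0.08, edgeR adjusted p = 0.175), and Cox14 (0.21 ± 0.08). The lowest p in complex I was that of Ndufaf2 (-0.26 ± 0.12) and Ndufaf4 (-0.20 ± 0.09), in complex II that of Sdhaf2 (-0.09 ± 0.09) and Sdhaf4 (0.08 ± 0.14). In complex III it was Ttc19 (-0.23 ± 0.09) and Uqcc1 (-0.14 ± 0.06), and in complex V Tmem70 (0.15 ± 0.07) and Atpaf2 (-0.10 ± 0.07). Of 7 partners outside the name rule, 0 passed, among them cytochrome c (Cycs, -0.10 ± 0.07) and Ndufa4l2, a relative of Ndufa4 known as a hypoxia gene (0.67 ± 0.29, edgeR adjusted p = 0.307).

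Of 78 mitochondrial ribosomal protein genes, 0 passed (median -0.04), with the smallest p for Mrps10 (-0.32 ± 0.07, edgeR adjusted p = 0.0822) and Mrpl50 (-0.21 ± 0.07). Of 81 cytosolic ribosomal protein genes, 0 passed (median 0.08), led by Rps12 (0.20 ± 0.06) and Rpl21 (0.30 ± 0.09), with 12 at an unadjusted p under 0.05. All 12 were higher in treated tumours, as were 9.12% of all genes at that threshold, and 68 of the 81 had positive and 13 negative values. Groups did not overlap for 36 of them (44.4%, against 23.3% of all genes), 33 higher and 3 lower in treated tumours. Of 17 genes of the TCA cycle and pyruvate dehydrogenase, 0 passed (median -0.06), led by Suclg2 (-0.17 ± 0.07) and Fh1 (-0.16 ± 0.07). Glycolysis likewise had 0 of 16 genes (median -0.02), led by Pfkp (0.21 ± 0.06) and the glucose transporter Slc2a1 (0.37 ± 0.13). In these 4 lists the unadjusted p was under 0.05 for 3, 12, 1 and 4 genes. Those were 3.85, 14.8, 5.88 and 25% of each list, against 16% of all genes tested. Hypoxia genes had a median of 0.41, with 7 of 12 at an unadjusted p under 0.05 (58.3%, against 16% of all genes). By adjusted p 1 rose, where 1.36% of all genes did. It was P4ha1, a collagen prolyl hydroxylase, at 220.7 ± 21.6 CPM in treated tumours and 155.5 ± 2.60 CPM in controls (0.50 ± 0.08, edgeR adjusted p = 0.0221). That list had 0 calls without treated 2 or any 1 control, and 5 without treated 1.

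Regulators of mitochondrial biogenesis gave 0 calls among 14 tested genes. Of these, 5 had positive and 9 negative log2 fold changes, from -0.53 to 0.41, with a median of -0.07. An unadjusted p under 0.05 was reached by 6 (42.9%, against 16% of all genes), 2 higher and 4 lower in treated tumours. The regulators named here were all lower, so they do not stand for the whole list. Pprc1, a coactivator related to PGC-1alpha, had 58.0, 55.9 and 52.6 CPM in treated 1, 2 and 3, against 66.7, 75.2 and 72.6 CPM in control 1, 2 and 3 (-0.36 ± 0.07, edgeR adjusted p = 0.0579). Gabpb1, a subunit of GABP, whose ETS motif 3 of the printed windows carry, had 31.0, 36.5 and 36.3 CPM in treated tumours and 40.8, 44.4 and 49.6 CPM in controls (-0.38 ± 0.10, edgeR adjusted p = 0.128). Groups did not overlap for either gene. Nrf1, whose motif is also shown, had 43.8, 47.8 and 51.9 CPM in treated tumours and 52.4, 54.6 and 57.1 CPM in controls (-0.19 ± 0.08, edgeR adjusted p = 0.296; named after its values were seen). Ppargc1a, which encodes PGC-1alpha, had 211, 268 and 203 CPM in treated tumours and 419, 332 and 235 CPM in controls (-0.53 ± 0.20, edgeR adjusted p = 0.249; also named after its values were seen), and treated 2 lay above control 3.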

How the data were processed

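RNA of 6 mouse tumours was selected with oligo(dT), made into libraries that mark strand and read as 150-base pairs, per the labels' protocols. Per the submitters' processing notes, fastp, edgeR and StringTie were among the tools, without versions. The sources used here name no aligner, build or annotation, nor whether counting used strand, and 26 members overlap an exon of a gene on the other strand. The authors deposited raw counts and FPKM per gene and library, per the file headers. One FPKM header carries an extra suffix and was taken by its library name. Low Cox and Nduf rows can share reads with pseudogenes.

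Counts were tested with edgeR 4.0.16 (glmQLFit and glmQLFTest, TMM, factors 0.974 to 1.014, filterByExpr with minimum count 10) in R 4.3.3, two-sided, on the group alone. This kept 18049 genes and removed 10319, with Benjamini-Hochberg adjustment over the kept genes and a threshold of 0.05. CPM is TMM-scaled, and FPKM ranks levels between genes. The SE is the log2 fold change divided by the square root of F, and intervals are at 95%. The fit was tested on simulated counts. No pair of libraries agreed within sampling noise (chi-square per gene of 18.1 to 92.3). With 57017043 to 66634551 counts per library, precision for most members is set by the spread between libraries. Alternatives used RLE factors, total counts, other filters, DESeq2 1.42.0, limma-voom 3.58.1 with and without quality weights, a replicate block and each library left out.

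Members and gene lists were chosen with earlier results of these data known. Members are named by smallest p, largest change either way and highest FPKM in each complex, plus core subunits and isoform families, and 1 member is not reported here. Of each other list, the called genes or the 2 of smallest p are named. The symbols Coa1, Usmg5 and Ucp1 are not analysed here. RefSeq start windows (GRCm38.p6) were matched by gene, and exon lengths come from GENCODE M21.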

Additional observations from a re-analysis of the deposited data

How the results depend on the processing

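No alternative called a nuclear-encoded member in either direction, and the medians of complexes I, II, IV and V moved by less than the spread between replicates. The median of complex III ran from -0.0378 to 0.0798 with each library left out, with the negative end without treated 1, and was -0.0226 with quality weights. That of complex V, 0.003, was -0.0113 with total counts. Replicate numbers did not pair the libraries (r = 0.042, -0.151 and -0.108 for pairs 1 to 3). With the replicate block, 123 genes rose and 14 fell, against 246 and 45, and the mitochondrially encoded and hypoxia calls went to 0 and 0 (adjusted p of mt-Nd1, mt-Nd5 and mt-Nd6 0.0561, 0.06 and 0.0786). DESeq2 called 754 genes up and 367 down, and quality weights 601 and 191. DESeq2 called 7 mitochondrially encoded, 5 hypoxia, 2 regulator genes and 1 each of mitochondrial ribosomal, cytosolic ribosomal and glycolysis genes, and quality weights called 7, 4 and 2 of the first 3 lists, 3 cytosolic ribosomal, 2 glycolysis and 1 complex IV assembly gene. A minimum count of 50 called 1 regulator. With each library left out, calls ran from 94 to 308 up and 3 to 39 down over all genes, and from 0 to 3 mitochondrially encoded, 0 to 5 hypoxia and 0 to 1 glycolysis genes.

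Some uncalled members changed sign, most of them near 0, but also Cox6a2, Atp5k and Atp5g1 (0.36, 0.18 and 0.12 in the reported fit). Sdhc was 0.00676 with no filter, 0.00251 at minimum 50, 3.8e-05 by voom, 0.0254 with weights and 0.00132 with the block. Sdha was 0.00621 with no filter and 0.00199 at minimum 50. Atp5a1 was -0.000905 with RLE, -0.0113 with total counts, -0.000906 by DESeq2 and -0.000526 with weights. Weights gave -0.0248 for Ndufv1, -0.0113 for Cyc1, -0.0497 for Cox7a1 and -0.0782 for Atp5g1, and Cox4i2 was 0.025 by voom and 0.0442 with the block. Leaving out libraries gave -0.0453 to 0.068 for Sdhc, -0.28 to 0.0916 for Cox6c2, -0.0191 to 0.299 for Atp5k, -0.0188 to 0.0713 for Ndufv1, -0.0199 to 0.025 for Sdha, -0.0578 to 0.0491 for Uqcrc1 and -0.0378 to 0.0867 for Cyc1. It gave -0.133 to 0.0119 for Cox5a, -0.026 to 0.0422 for Atp5a1, -0.352 to 0.17 for Cox4i2, -0.0483 to 0.747 for Cox6a2, -0.101 to 0.172 for Cox7a1, -0.079 to 0.0179 for Cox7a2 and -0.00107 to 0.293 for Atp5g1. The causes were not tested. Depth limits the restricted isoforms of complex IV.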
